A study of Mus musculus with 6 samples.

Results

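Nuclear-encoded subunits of the mitochondrial respiratory chain were followed in mouse embryonic stem cells labelled Rif1-KO and in their controls. The genes were taken by a rule on symbols, chosen with earlier results of these data known. The rule takes those named Nduf with the letter a, b, c, s or v and a number, and Sdha to Sdhd. It also takes those that begin with Uqcr or Atp5, and those named Cox4 to Cox8 with the letter a, b or c. The genes taken were 84 of the 33924 symbols in the count tables. Of these, 35 belong to complex I, 4 to complex II, 8 to complex III, 18 to complex IV and 19 to complex V. RNA was sequenced in 6 libraries of E14, a line of embryonic stem cells from the mouse, 3 of them labelled Rif1-KO and 3 labelled control. For all 6 the labels give growth on gelatin in 2i medium, which holds stem cells in naive pluripotency, and 0.1 µM 4-OHT, a form of tamoxifen, for 2 days followed by a day without it. Column names in the deposited tables carry the letters TAM only for Rif1-KO-labelled libraries and 2i only for the control libraries, and the sources used here leave it unsettled whether control cells were given 4-OHT or another medium. They do not say by which means Rif1 was disrupted.

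The respiratory chain passes electrons from NADH and succinate to oxygen across the inner mitochondrial membrane, and ATP synthase uses the proton gradient that results. Complex I oxidises NADH, complex II oxidises succinate and belongs to the citric acid cycle as well, complex III passes electrons to cytochrome c, complex IV reduces oxygen, and complex V makes ATP. Most subunits are encoded in the nucleus, a small set in mitochondrial DNA, and the 2 sets are assembled together. Naive mouse embryonic stem cells are known to use respiration beside glycolysis.

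Total counts per library ran from 9185062 to 10980777 in Rif1-KO-labelled libraries and from 8383632 to 9218036 in control libraries. Values are given as CPM, the usual count relative to library size, with library sizes normalized by TMM, and genes were tested by quasi-likelihood in edgeR, with p-values adjusted over 14250 genes by the Benjamini-Hochberg method, where a gene is said to have risen or fallen at an adjusted p under 0.05. Each fold change puts Rif1-KO-labelled libraries over control and carries its standard error (SE). Rif1 itself had 602, 604 and 664 CPM in Rif1-KO-labelled libraries, against 673, 657 and 700 CPM in control libraries (log2 fold change −0.12 ± 0.05 SE, edgeR adjusted p = 0.0509). The groups overlapped. In 9 of 15 alternatives Rif1 passed as lower, with log2 fold changes from −0.29 to −0.09 and adjusted p from 4.85e-06 to 0.212 over all 15. The count of Rif1 over its whole length does not check the labels, since the means of its disruption is not given, and every direction given here is between libraries as labelled. The correlation of log CPM across genes was 0.995 to 0.996 between libraries of a group and 0.975 to 0.977 between groups. Respiratory chain genes took 0.869 to 0.927% of counts in Rif1-KO-labelled libraries, lowest in replicate 3, and 1.03 to 1.07% in control libraries.

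Respiratory chain transcripts were mostly somewhat lower in Rif1-KO-labelled libraries. Of the 78 genes that passed the filter on low counts, 47 fell, 2 rose and 29 did not pass the test. Over all tested genes 24.8% fell and 26.1% rose (edgeR), 50.9% in either direction, so the 60.3% of respiratory chain genes that fell stood above the background share and the 2.56% that rose below it. Their median log2 fold change was −0.20, against 0.003 over all tested genes, and 61 of the 78 values lay below 0, against 49.6% of all tested genes. In 43 genes each Rif1-KO-labelled library was below each control library (27.8% of all tested genes), in 2 each was above (29.4%), and in 33 the groups overlapped. Most changes were small. Of the 78 genes, 3 fell by 1.5-fold or more, Cox6a2, Atp5g1 and Sdhb, near the share over all tested genes (4.92%). Cox6a2 passed the filter on low counts only through its control libraries. Ndufa4l2 alone rose by as much (10.5% of all tested genes did so). The number that rose was 8 without replicate 3 of Rif1-KO, 5 without control replicate 1, and 1 without replicate 1 of Rif1-KO, replicate 2 of the control or replicate 3 of the control. In RNA from whole cultures a smaller number of cells that express a gene and less of its RNA per cell cannot be told apart.

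**Figure D1:**
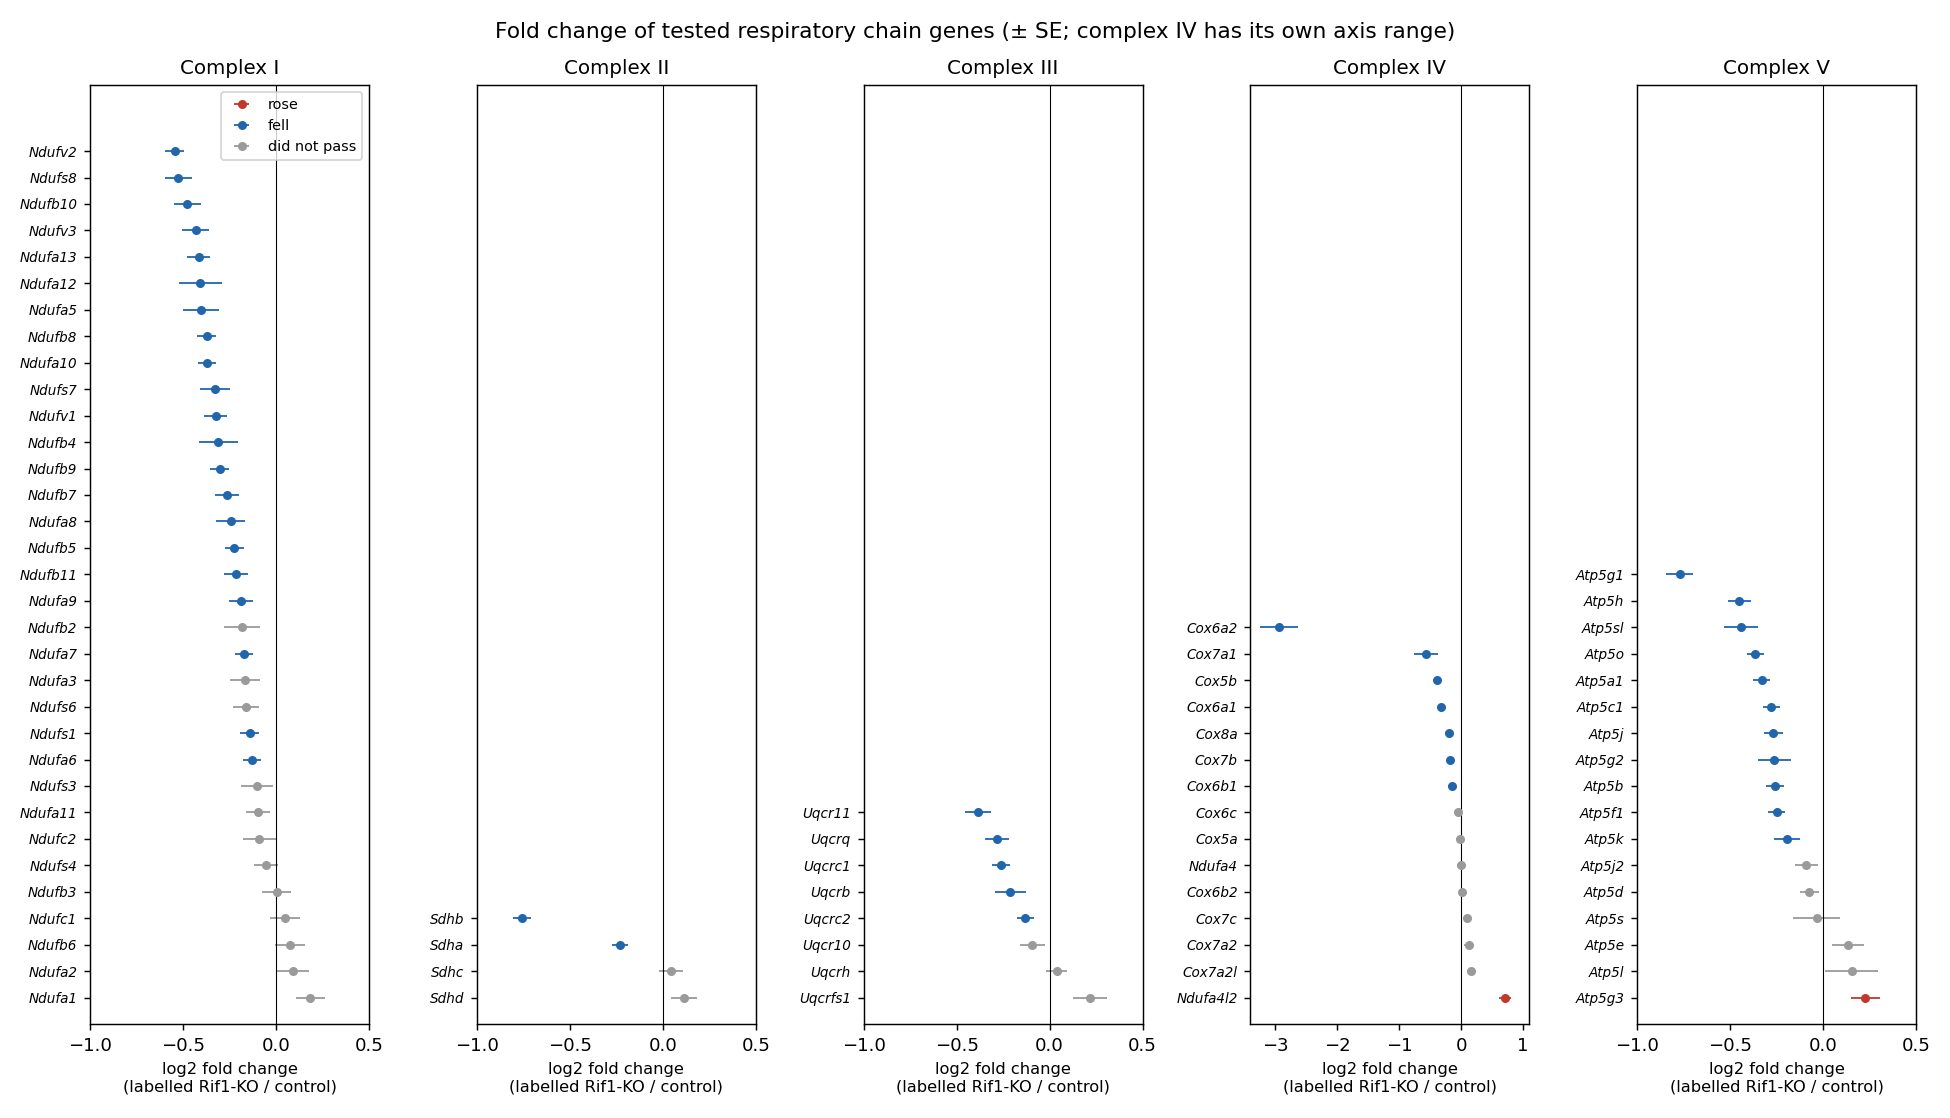
Log2 fold change (horizontal axis, Rif1-KO-labelled libraries over control, ± SE) of 77 of the 78 tested respiratory chain genes, 1 panel per complex, with genes that fell in blue, rose in red and did not pass in grey. Most points lie left of 0 in complexes I, III and V, while complex II divides into 2 genes that fell and 2 that did not pass, and complex IV spans −2.94 (Cox6a2) to 0.71 (Ndufa4l2) on its own, wider axis.

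Summed over its genes, each complex was lower in Rif1-KO-labelled libraries. Complex I genes together had 2119 ± 42.8 CPM in Rif1-KO-labelled libraries and 2526 ± 43.8 CPM in control libraries (SD, n = 3 each), a difference of −16.1%. Complex II had 566 ± 28.9 CPM in Rif1-KO-labelled libraries and 685 ± 25.2 CPM in control libraries, a difference of −17.3%. Complex V had 4003 ± 102 CPM in Rif1-KO-labelled libraries and 4788 ± 90.1 CPM in control libraries, a difference of −16.4%. Complex III summed to 788 ± 31.5 CPM in Rif1-KO-labelled libraries and 872 ± 19.1 CPM in control libraries (−9.58%), and complex IV to 1532 ± 43.2 CPM in Rif1-KO-labelled libraries and 1656 ± 47.3 CPM in control libraries (−7.46%). In each of the 5 complexes all Rif1-KO-labelled libraries lay below all control libraries. Divided by transcript length before summing, the differences were −11.7% for complex I, −19.5% for II, −7.75% for III, −5.41% for IV and −12.8% for V. Differences between complexes were not tested.

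**Figure D2:**
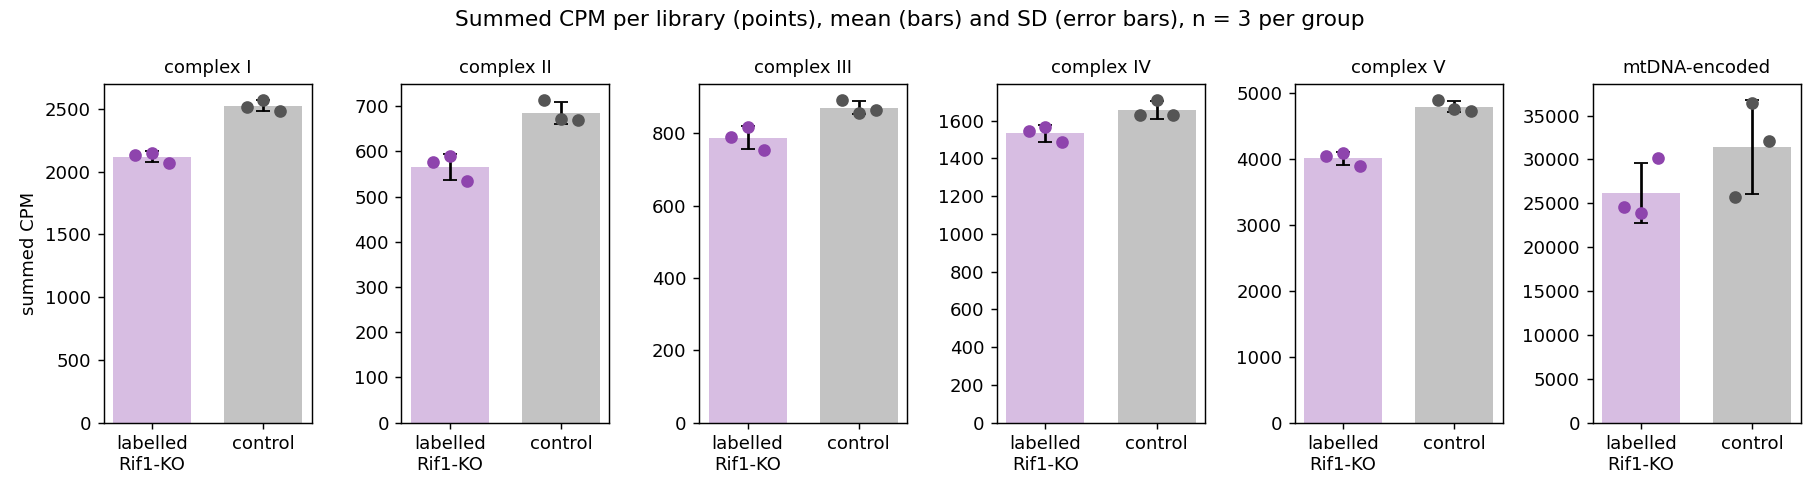
Summed CPM (vertical axis) of the genes of each complex and of the mitochondrially encoded subunits in each library (points), with the mean (bars) and SD (error bars) of 3 Rif1-KO-labelled libraries (purple, left) and 3 control libraries (grey, right). The points of the groups are apart in complexes I to V, and overlap for the mitochondrially encoded subunits.

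In complex I, 22 of 34 tested genes fell, 0 rose and 12 did not pass, with a median log2 fold change of −0.22. Among genes with a higher value, 1 had an unadjusted p under 0.05 in edgeR, and 0 passed with DESeq2 or limma-voom. Without replicate 2 of Rif1-KO, 1 complex I gene rose. The electron input module, which takes electrons from NADH, had 5 of 8 genes that fell (62.5%, against 24.8% of all tested genes). Ndufv2, an iron-sulfur subunit of that module, had 113, 104 and 109 CPM in Rif1-KO-labelled libraries, against 157, 164 and 153 CPM in control libraries. The groups were well apart (log2 fold change −0.54 ± 0.05 SE, edgeR adjusted p = 2.53e-08). Its partner Ndufv1, which binds the flavin that accepts electrons from NADH, had 108, 112 and 96.4 CPM in Rif1-KO-labelled libraries and 143, 132 and 122 CPM in control libraries (log2 fold change −0.32). Ndufv3 fell by 0.43 and Ndufa12 by 0.41 on the log2 scale, although the Ndufa12 groups overlapped. Ndufs1, the large iron-sulfur subunit, fell by 0.14. Ndufs4, Ndufs6 and Ndufa2 of the same module did not pass, with log2 fold changes of −0.05, −0.16 and 0.09. The call of Ndufa12 was lost with DESeq2 and without control replicate 2, and that of Ndufs1 with DESeq2 and without replicate 2 or 3 of the control or replicate 1 or 2 of Rif1-KO.

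The quinone module, which hands the electrons to ubiquinone, had 7 of 8 genes that fell (87.5%, against 24.8% of all tested genes). Ndufs3, with a log2 fold change of −0.10, did not pass. Ndufs8, which carries iron-sulfur clusters, had 31.5, 38.1 and 36.5 CPM in Rif1-KO-labelled libraries, against 49.2, 53.2 and 50 CPM in control libraries. No Rif1-KO-labelled library reached the lowest control (log2 fold change −0.52 ± 0.07 SE, edgeR adjusted p = 7.46e-06). Ndufs7, next to it in the electron path, fell by 0.33. Among accessory subunits of the module, Ndufa5 fell by 0.40, Ndufa9 by 0.19, Ndufa7 by 0.17 and Ndufa6 by 0.13, and the Ndufa9 groups overlapped. The Ndufa9 call was lost without replicate 1 or 3 of the control or replicate 3 of Rif1-KO, and the Ndufa6 call without control replicate 2 or any 1 of the 3 replicates of Rif1-KO.

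In the membrane arm, through which protons pass, the distal part had 7 of 10 genes that fell (70%). The proximal part had 3 of 8 (37.5%), against 24.8% of all tested genes. Differences between the parts of complex I were not tested. Ndufb10, of the distal part, had 44.7, 44.9 and 46.5 CPM in Rif1-KO-labelled libraries, against 57.2, 70.8 and 61.7 CPM in control libraries, a log2 fold change of −0.48 ± 0.07 SE. Ndufb8 had 114, 113 and 106 CPM in Rif1-KO-labelled libraries, against 143, 146 and 144 CPM in control libraries, and its groups too were apart (log2 fold change −0.37 ± 0.05 SE, edgeR adjusted p = 2.51e-06). Of the other distal genes Ndufb4, Ndufb9, Ndufb7, Ndufb5 and Ndufb11 fell by 0.31, 0.30, 0.26, 0.22 and 0.22 on the log2 scale, and Ndufb2, Ndufb3 and Ndufb6 did not pass. In the proximal part Ndufa13, Ndufa10 and Ndufa8 fell by 0.42, 0.37 and 0.24. Ndufa10 had 113, 106 and 113 CPM in Rif1-KO-labelled libraries, against 141, 145 and 144 CPM in control libraries. The proximal genes Ndufa3, Ndufa11, Ndufc2, Ndufc1 and Ndufa1 did not pass. Ndufa1 was the only complex I gene whose Rif1-KO-labelled libraries all lay above the control libraries, at 31.8, 29.3 and 31.6 CPM, against 27.7, 27.9 and 26 CPM in control libraries (log2 fold change 0.18, edgeR adjusted p = 0.0515). Ndufs5, also of the proximal part, had too few counts to be tested, 9, 8 and 7 in Rif1-KO-labelled libraries and 14, 15 and 9 in control libraries. The Ndufb4 call was lost without replicate 2 of the control or replicate 1 of Rif1-KO, and the Ndufa8 call without replicate 3 of the control or replicate 1 of Rif1-KO.

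Both genes of the complex II head fell, and neither gene of its membrane anchor passed the test. Sdhb, the iron-sulfur subunit of the head, had 135, 135 and 122 CPM in Rif1-KO-labelled libraries, against 221, 227 and 216 CPM in control libraries. That is 1.69-fold lower (log2 fold change −0.76 ± 0.05 SE, edgeR adjusted p = 1.77e-10), and the groups lay far apart compared with their spread. Sdha, the flavin subunit that oxidises succinate, had 225, 228 and 225 CPM in Rif1-KO-labelled libraries, against 276, 255 and 265 CPM in control libraries (log2 fold change −0.23 ± 0.05 SE, edgeR adjusted p = 2.75e-04). Sdhc and Sdhd hold the head in the membrane. Sdhc had 103, 111 and 93.6 CPM in Rif1-KO-labelled libraries and 108, 96.2 and 93.9 CPM in control libraries (log2 fold change 0.04 ± 0.06 SE, edgeR adjusted p = 0.606). Sdhd had 113, 115 and 92.5 CPM in Rif1-KO-labelled libraries and 108, 93.1 and 94.8 CPM in control libraries (log2 fold change 0.11 ± 0.07 SE, edgeR adjusted p = 0.196). In both anchor genes the groups overlapped. Without control replicate 1 or replicate 3 of Rif1-KO, 1 complex II gene rose. Whether the head differed from the anchor was not tested. Per length, the level of Sdhb was 260 ± 15.1 in Rif1-KO-labelled libraries and 429 ± 7.98 in control libraries, in TPM (transcript level scaled by length and depth), and that of Sdha was 177 ± 0.905 in Rif1-KO-labelled libraries and 202 ± 12.1 in control libraries.

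The promoters of the 2 head genes are shown because both genes fell and their windows differ in the motifs of factors known to control respiratory genes. Sequences are RefSeq promoter windows of build GRCm38.p6, 250 bases before to 50 after the gene start, written 5′ to 3′ along the gene. That of Sdhb lies at chr4:140961021-140961320 on the + strand and that of Sdha at chr13:74350191-74350490 on the - strand. Capitals mark matches on either strand to the NRF1 motif, CCGGAAG (the ETS family, to which GABPA belongs), AAGATGGC (YY1) or GGGCGG (SP1).
Sdhb: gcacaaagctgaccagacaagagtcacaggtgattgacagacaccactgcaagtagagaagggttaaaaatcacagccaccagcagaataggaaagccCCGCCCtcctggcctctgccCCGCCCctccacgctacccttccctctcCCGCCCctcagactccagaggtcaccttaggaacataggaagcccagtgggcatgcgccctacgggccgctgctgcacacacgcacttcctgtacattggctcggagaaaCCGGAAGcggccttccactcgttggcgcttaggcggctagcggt
Sdha: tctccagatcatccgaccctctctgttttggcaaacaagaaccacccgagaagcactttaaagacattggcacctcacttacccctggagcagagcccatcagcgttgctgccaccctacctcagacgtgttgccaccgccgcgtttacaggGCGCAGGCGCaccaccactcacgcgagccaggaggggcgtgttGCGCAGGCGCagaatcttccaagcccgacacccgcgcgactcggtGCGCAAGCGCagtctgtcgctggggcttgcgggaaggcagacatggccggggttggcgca
The Sdhb window held 3 SP1 matches and 1 ETS match, and the Sdha window 3 NRF1 matches. A match is a description of letters, not of binding.

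In complex III, 5 of 8 genes fell and 3 did not pass, with a median log2 fold change of −0.17. The core proteins Uqcrc1 and Uqcrc2, scaffold subunits on the matrix side, both fell. Uqcrc1 had 236, 238 and 221 CPM in Rif1-KO-labelled libraries, against 284, 273 and 276 CPM in control libraries (log2 fold change −0.26 ± 0.05 SE, edgeR adjusted p = 8.31e-05). Uqcrc2 fell by 0.13, and the call ended on leaving out either control replicate 1 or 2, or replicate 1 of Rif1-KO. Among the small subunits Uqcr11 fell by 0.38, Uqcrq by 0.28 and Uqcrb by 0.21, and Uqcr10 and Uqcrh did not pass. Uqcr11 had 32.1, 34.9 and 31 CPM in Rif1-KO-labelled libraries, against 43.8, 43.6 and 40.6 CPM in control libraries. Uqcrq had 58.8, 63.0 and 53.3 CPM in Rif1-KO-labelled libraries, against 69.0, 72.4 and 72.0 CPM in control libraries, and in both the groups were apart. The Uqcrb groups overlapped, and its call was lost with DESeq2, with limma-voom and on leaving out replicate 2 or 3 of the control or replicate 1 or 2 of Rif1-KO. Without replicate 1 of Rif1-KO, 3 complex III genes fell, and without control replicate 1 or replicate 3 of Rif1-KO, 1 rose. Uqcrfs1, the Rieske iron-sulfur protein and the only electron-carrying subunit that the symbol rule takes from this complex, had 93.4, 95 and 71.7 CPM in Rif1-KO-labelled libraries and 86.4, 65.9 and 71.7 CPM in control libraries (log2 fold change 0.22 ± 0.09 SE, edgeR adjusted p = 0.0565). Its groups overlapped. Cyc1, cytochrome c1, whose symbol the rule does not take, fell by 0.25 (edgeR adjusted p = 0.00248).

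Complex IV had 7 of 15 tested genes that fell, 1 that rose and 7 that did not pass, with a median log2 fold change of −0.06. Without replicate 3 of Rif1-KO 4 rose, 2 rose without control replicate 1, and without replicate 2 of Rif1-KO the median was −0.11. Among its 10 widespread subunits, 5 fell (50%, against 24.8% of all tested genes). Cox5b, a matrix-side subunit, had 95.3, 93.4 and 87.8 CPM in Rif1-KO-labelled libraries, against 108, 133 and 121 CPM in control libraries (log2 fold change −0.39 ± 0.06 SE, edgeR adjusted p = 3.88e-05). Cox6a1 had 186, 177 and 192 CPM in Rif1-KO-labelled libraries, against 225, 252 and 222 CPM in control libraries (log2 fold change −0.33 ± 0.05 SE, edgeR adjusted p = 2.99e-05). In both genes the groups were apart. Cox8a fell by 0.20, Cox7b by 0.19 and Cox6b1 by 0.15 on the log2 scale. The Cox6b1 groups overlapped, and its call was lost with DESeq2, with limma-voom and on leaving out replicate 2 or 3 of the control or replicate 1 or 2 of Rif1-KO. Cox5a, Cox6c, Cox7a2, Cox7c and Ndufa4 did not pass, with log2 fold changes from −0.06 (Cox6c) to 0.12 (Cox7a2). Cox7a2 passed as higher with the GC and length offset, which takes out each library's own trend with GC content and transcript length, and without replicate 3 of Rif1-KO, at a log2 fold change of 0.20 in each. Ndufa4 bears a complex I name but is a subunit of complex IV. Cox7a2l, which helps to join complexes III and IV into supercomplexes, had a log2 fold change of 0.16 and did not pass.

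Tissue isoforms and a paralogue of widespread complex IV subunits included the extremes of the family. The lowest log2 fold change was that of the isoform Cox6a2, and the highest that of the paralogue Ndufa4l2. Cox6a2, the heart and skeletal muscle form of Cox6a1, had 5, 4 and 4 counts in Rif1-KO-labelled libraries, against 30, 27 and 33 counts in control libraries. In CPM these are 0.452, 0.404 and 0.437 in Rif1-KO-labelled libraries and 3.24, 3.28 and 3.65 in control libraries, which is 7.66-fold lower (log2 fold change −2.94 ± 0.31 SE, edgeR adjusted p = 1.59e-07). The groups did not come near each other, but the gene passed the filter on low counts only through its control libraries. It made up 0.195 ± 0.0072% of the Cox6a1 and Cox6a2 transcripts, per length, in Rif1-KO-labelled libraries and 1.21 ± 0.142% in control libraries. Cox7a1, the muscle form of Cox7a2, had 4.79, 3.54 and 2.73 CPM in Rif1-KO-labelled libraries, against 5.84, 5.1 and 5.75 CPM in control libraries (log2 fold change −0.57 ± 0.20 SE, edgeR adjusted p = 0.019). The groups were apart by a narrow margin, and the call was lost with DESeq2 and on leaving out control replicate 3 or either of replicates 2 and 3 of Rif1-KO.

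Ndufa4l2, a paralogue of Ndufa4 known to be induced in hypoxia, rose. It had 36.6, 35.8 and 33.5 CPM in Rif1-KO-labelled libraries, against 18.3, 25.6 and 21.3 CPM in control libraries, which is 1.63-fold higher (log2 fold change 0.71 ± 0.10 SE, edgeR adjusted p = 4.64e-06). All Rif1-KO-labelled libraries lay above all control libraries. Ndufa4l2 was 15.8 ± 0.323% of Ndufa4 and Ndufa4l2 transcripts, per length, in Rif1-KO-labelled libraries and 10.4 ± 2.16% in control libraries. Its exons overlap those of Shmt2 on the other strand, which had a mean of 154 CPM in Rif1-KO-labelled libraries and 237 CPM in control libraries, and the strand setting of the counting is not given in the sources used here. Cox6b2, a testis form of Cox6b1, had 74, 71 and 70 CPM in Rif1-KO-labelled libraries and 71.3, 69 and 72.2 CPM in control libraries and did not pass (edgeR adjusted p = 0.809), but passed as higher with the GC and length offset (log2 fold change 0.13, adjusted p = 0.0447). It made up 35.5 ± 1.94% of Cox6b1 and Cox6b2 transcripts, per length, in Rif1-KO-labelled libraries and 33.0 ± 2.20% in control libraries. Cox7b2, Cox8b and Cox8c had too few counts to be tested, with 14, 10 and 7 counts in all over Rif1-KO-labelled libraries and 8, 22 and 1 over the control libraries.

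Markers of other cells were read beside these isoforms. Of 9 striated muscle markers in the table, 1 could be tested and did not pass, and their sum was 39.6 to 40.8 CPM in Rif1-KO-labelled libraries and 32.8 to 40.5 CPM in control libraries. Des, which is not restricted to striated muscle, made up most of it, at 37.5 CPM in Rif1-KO-labelled libraries and 33.5 CPM in control libraries, and passed as higher with the GC and length offset (log2 fold change 0.26) and without control replicate 2 (0.27). Of 5 brown fat markers, Elovl3 was at 0 in all libraries, and the sum was 1.53 to 3.03 CPM in Rif1-KO-labelled libraries and 3.52 to 5.62 CPM in control libraries. Ucp1, the uncoupling protein of brown fat, was lower, at 0.542 ± 0.392 CPM in Rif1-KO-labelled libraries, against 3.62 ± 0.934 CPM in control libraries, and passed the filter on low counts only through its control libraries. Cidea, the other brown fat marker that could be tested, had 14, 26 and 11 counts in Rif1-KO-labelled libraries and 9, 7 and 14 counts in control libraries and did not pass. The part of such cells in the isoform differences was not tested.

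**Figure D3:**
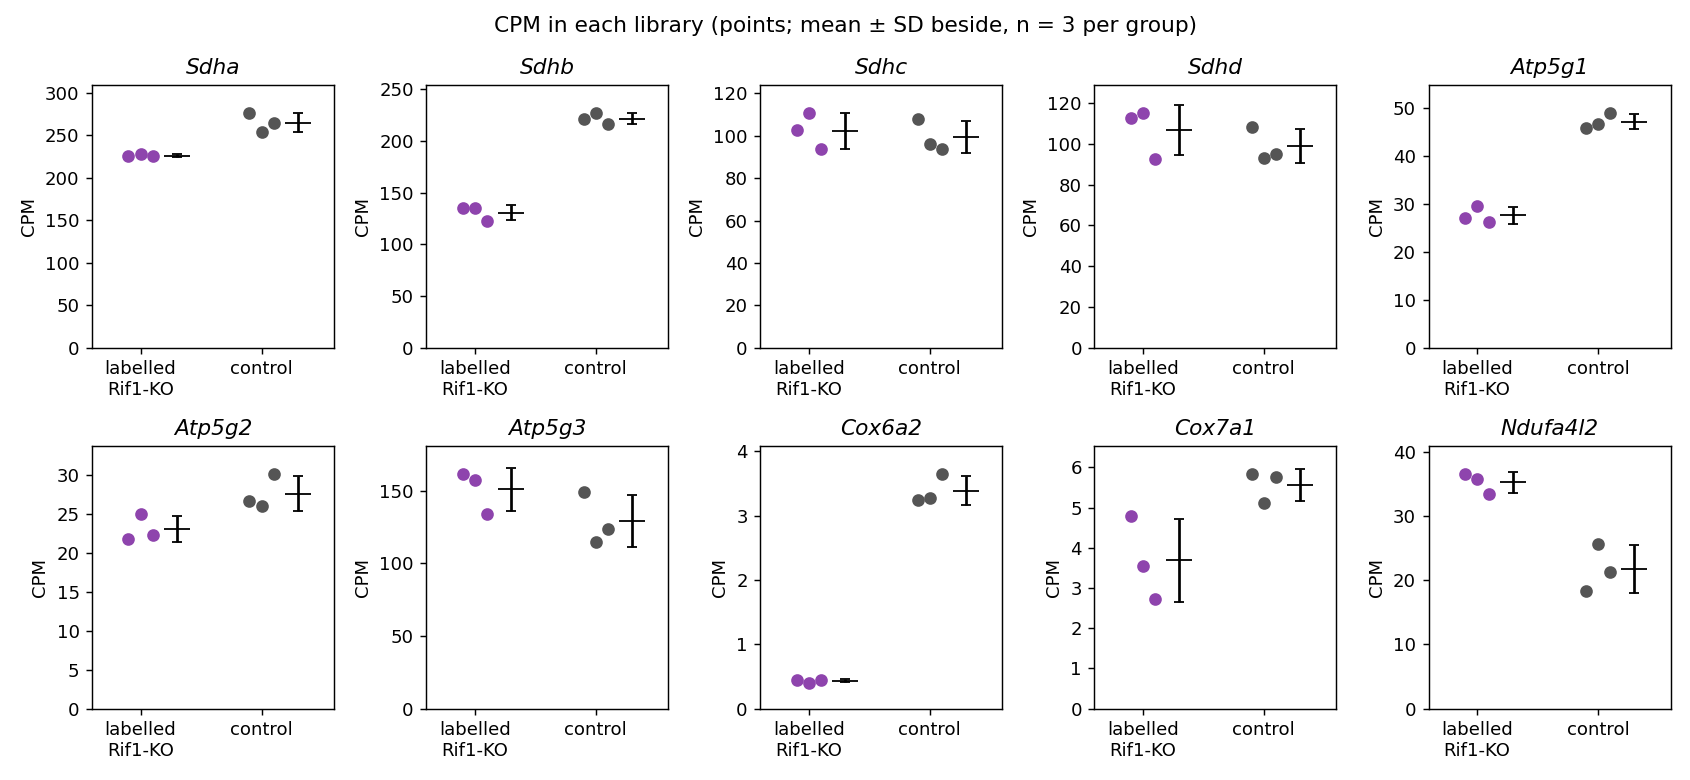
CPM (vertical axis) of 10 genes in each of 3 Rif1-KO-labelled libraries (purple, left) and 3 control libraries (grey, right), with the mean ± SD beside the points. Sdhb, Atp5g1 and Cox6a2 are lower in every Rif1-KO-labelled library and Ndufa4l2 is higher in every one, while the points of Sdhc, Sdhd and Atp5g3 overlap.

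Complex V had 11 of 17 tested genes that fell, 1 that rose and 5 that did not pass, with a median log2 fold change of −0.26. Without replicate 3 of Rif1-KO 2 rose, and 0 rose without replicate 1 or 2 of Rif1-KO or replicate 2 or 3 of the control. Its alpha and beta subunits, Atp5a1 and Atp5b, which form the catalytic head, had the highest mean CPM of all members. Atp5b had 1704, 1668 and 1591 CPM in Rif1-KO-labelled libraries, against 2050, 1946 and 1940 CPM in control libraries (log2 fold change −0.26 ± 0.05 SE, edgeR adjusted p = 1.17e-04). Atp5a1 had 971, 1010 and 956 CPM in Rif1-KO-labelled libraries, against 1266, 1215 and 1210 CPM in control libraries (log2 fold change −0.33 ± 0.05 SE, edgeR adjusted p = 5.40e-06). Both sets of libraries were apart, and without these 2 genes the summed CPM of complex V still differed by −13.3%. Atp5c1, the gamma subunit of the central stalk, fell by 0.28. Atp5d and Atp5e, the delta and epsilon subunits at its foot, did not pass, with log2 fold changes of −0.07 and 0.13.

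The peripheral stalk, which keeps the head from turning with the rotor, was the only named part of complex V in which each tested gene fell. Atp5o, the subunit that joins the stalk to the head, had 141, 143 and 141 CPM in Rif1-KO-labelled libraries, against 179, 188 and 180 CPM in control libraries (log2 fold change −0.36 ± 0.05 SE, edgeR adjusted p = 1.42e-06). Atp5h had 57.3, 62 and 60.9 CPM in Rif1-KO-labelled libraries, against 76.3, 88 and 82.1 CPM in control libraries (log2 fold change −0.45 ± 0.06 SE, edgeR adjusted p = 4.50e-06). Atp5j fell by 0.27 and Atp5f1 by 0.25, and in all 4 genes the groups were apart. Of 50-base stretches of their transcripts, 63.0% in Atp5o and 50.5% in Atp5h also occur in transcripts of other genes, so their counts depend on how shared reads were handled. Atp5o overlaps exons of Donson on the same strand, which had a mean of 34.3 CPM in Rif1-KO-labelled libraries and 34.6 CPM in control libraries. Of the membrane subunits found where ATP synthases pair, Atp5k fell by 0.20, and Atp5j2 and Atp5l did not pass. In Atp5l 84.8% of 50-base stretches also occur in transcripts of other genes, so its count too depends on how shared reads were handled. The Atp5k call was lost without control replicate 1 and without replicate 1 or 3 of Rif1-KO. Atp5sl and Atp5s, which the symbol rule takes but which are not subunits, had log2 fold changes of −0.44 (fell) and −0.03 (did not pass). Atp5l2 and Atp5l-ps1, copies of Atp5l, had at most 2 counts over either group and were not tested.

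The c ring, the rotor that protons drive, is encoded by 3 genes whose mature proteins are known to be identical. By edgeR, Atp5g1 and Atp5g2 fell and Atp5g3 rose. Atp5g1 had 27, 29.5 and 26.2 CPM in Rif1-KO-labelled libraries, against 45.8, 46.5 and 48.9 CPM in control libraries, which is 1.71-fold lower (log2 fold change −0.77 ± 0.07 SE, edgeR adjusted p = 3.08e-08). Its groups were far apart. Atp5g2 had 21.8, 24.9 and 22.3 CPM in Rif1-KO-labelled libraries, against 26.6, 26 and 30.1 CPM in control libraries (log2 fold change −0.26 ± 0.09 SE, edgeR adjusted p = 0.0173). Atp5g3 had 161, 157 and 134 CPM in Rif1-KO-labelled libraries, against 149, 115 and 123 CPM in control libraries (log2 fold change 0.23 ± 0.08 SE, edgeR adjusted p = 0.0193). The Atp5g3 groups overlapped, and its call was lost with DESeq2 and on leaving out replicate 2 or 3 of the control or replicate 1 or 2 of Rif1-KO. The call of Atp5g2 was lost with DESeq2, with an offset for GC content and length, and without control replicate 3 or Rif1-KO replicate 1.

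Summed, the 3 c ring genes had 201 ± 16.6 CPM in Rif1-KO-labelled libraries and 204 ± 17.1 CPM in control libraries, a difference of −1.04% that lay within the spread. Per length, Atp5g3 made up 69.6 ± 2.06% of their transcripts in Rif1-KO-labelled libraries and 57.9 ± 3.78% in control libraries. Atp5g1 made up 13.2 ± 0.686% in Rif1-KO-labelled libraries and 22.0 ± 1.94% in control libraries. The share of Atp5g2 was 17.2 ± 1.38% in Rif1-KO-labelled libraries and 20.1 ± 1.98% in control libraries. Of 50-base stretches, 56.2% in Atp5g1, 100% in Atp5g2 and 0% in Atp5g3 also occur in transcripts of other genes, so reads of the first 2 could be counted elsewhere or dropped.

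The promoters of Atp5g1, which fell, and Atp5g3, which rose by edgeR, follow in the same form. The call of Atp5g3, whose groups overlapped, held in 10 of 15 alternatives. Atp5g1 lies at chr11:96075582-96075881 and Atp5g3 at chr2:73911277-73911576, both on the - strand.
Atp5g1: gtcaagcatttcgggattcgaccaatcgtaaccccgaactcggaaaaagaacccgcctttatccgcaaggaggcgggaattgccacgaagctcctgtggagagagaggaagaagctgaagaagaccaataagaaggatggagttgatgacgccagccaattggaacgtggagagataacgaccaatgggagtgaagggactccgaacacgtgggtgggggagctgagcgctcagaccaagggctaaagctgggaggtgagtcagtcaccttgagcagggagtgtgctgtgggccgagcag
Atp5g3: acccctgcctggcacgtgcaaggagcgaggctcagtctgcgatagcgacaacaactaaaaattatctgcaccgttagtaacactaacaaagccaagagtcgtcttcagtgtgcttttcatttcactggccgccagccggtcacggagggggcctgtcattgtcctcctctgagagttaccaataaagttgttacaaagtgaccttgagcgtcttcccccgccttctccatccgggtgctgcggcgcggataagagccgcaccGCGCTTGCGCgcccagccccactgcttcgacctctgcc
The Atp5g1 window held no match to the 4 motifs, and the Atp5g3 window held 1 NRF1 match. The window of Atp5g2, which fell like Atp5g1, is not printed and held NRF1 and SP1 matches.

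Over the family, 66 of the 84 genes matched RefSeq promoters, with 71 windows. NRF1 matches were in 25.4% of these windows (4.60% of all 32851 promoter windows), ETS matches in 22.5% (8.86%), YY1 matches in 12.7% (2.75%) and SP1 matches in 38.0% (35.7%). Among windows of genes that fell, NRF1 matches were in 13 of 41, and among windows of the other genes in 5 of 30. ETS matches were in 10 of 41 windows of genes that fell and 6 of 30 of the others. YY1 matches were in 4 of 41 windows of genes that fell and 5 of 30 of the others, and SP1 matches in 16 of 41 and, among the others, 11 of 30. Overlaps between motifs were not removed.

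Respiratory chain transcripts are short, with a median of 698 bases over all 84, against 2720 bases over all tested genes. Of 2947 tested genes with transcripts up to 1500 bases, 761 fell and 493 rose, with a median log2 fold change of −0.07. Of the 63 respiratory chain genes in that range, 34 fell and 2 rose, with a median of −0.18. Of the 39 respiratory chain genes over the median of 737 bases, 28 fell and 1 rose, and of the 39 at or under it, 19 fell and 1 rose. Spearman's rho between log2 fold change and transcript length was −0.20 over the 78 genes, and with GC content −0.34. With control CPM (log2) it was −0.14. Over 13936 tested genes rho was 0.11 with length, −0.15 with GC content and −0.21 with control CPM. These are descriptions across genes that share the same 6 libraries, and the part of expression level in the family's shift was not tested. With an offset for GC content and length in the fit, the median of the family was −0.14 and 7 genes rose. Where over 20% of 50-base stretches occur in other genes, 12 of 18 genes fell, and elsewhere 35 of 60 fell.

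**Figure D4:**
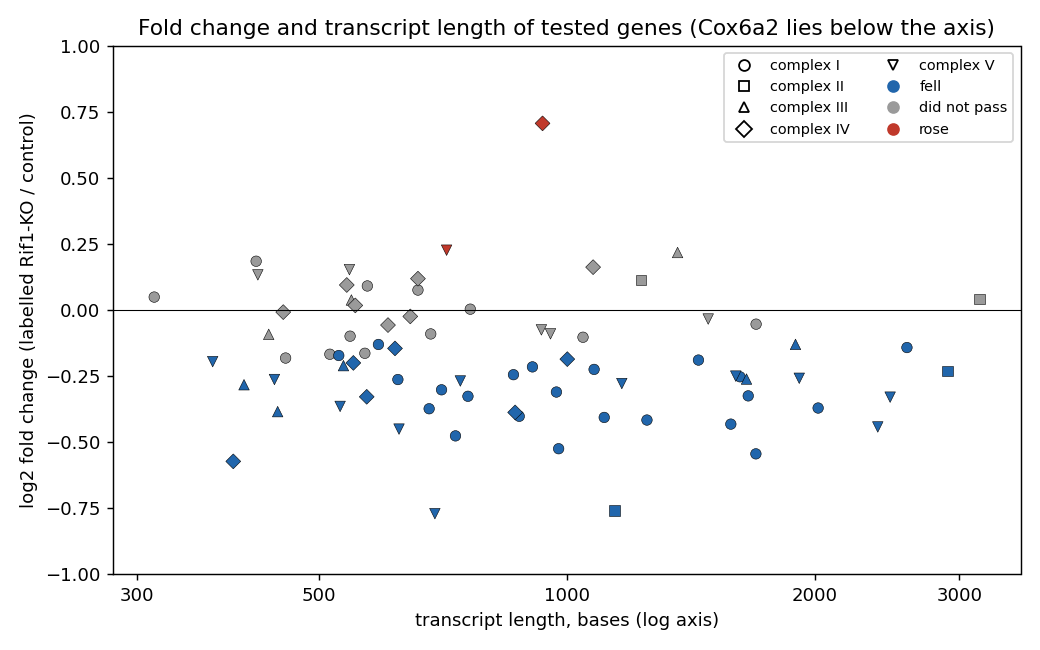
Log2 fold change (vertical axis, Rif1-KO-labelled libraries over control) against transcript length (horizontal log axis, bases) for 77 tested genes, with shape for the complex and colour for the call. Cox6a2, at −2.94, lies beyond the axis, and genes that fell are found over the whole range of lengths, both under and over the median of 737 bases.

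Genes around the chain were counted in lists beside it. Over all tested genes 24.8% fell, 26.1% rose and 50.9% were called in either direction, to be set beside each list. A list of 7 genes whose symbols the rule does not take held subunits and Atpif1, the inhibitor of ATP synthase, which is not a subunit. Of the 7, 4 fell and 1 rose. Atpif1 fell and had the lowest adjusted p, at 91.5 ± 7.73 CPM in Rif1-KO-labelled libraries and 126 ± 17.9 CPM in control libraries (log2 fold change −0.47). Of 33 tested assembly factors, 11 fell (33.3%), 6 rose (18.2%) and 16 did not pass, with a median log2 fold change of −0.10. The 51.5% called in either direction lay near the share over all tested genes. Not every listed factor was found by symbol. For complex I 11 of 18 were found, for II 3 of 4 and for III 4 of 6. For complex IV 13 of 23 were found and for V 3 of 5. By complex, 4 of 11 tested factors of complex I fell and 0 rose, and 1 of 3 of complex II rose. In complex III 2 of 4 fell and 1 rose, in IV 4 of 12 fell and 3 rose, and in V 1 of 3 fell and 1 rose. The count of complex I factors that rose was also 0 at an unadjusted p under 0.05 in edgeR and with DESeq2 and limma-voom. Ecsit, a complex I factor, fell by 0.53, Bcs1l, which inserts the Rieske protein, by 0.47, Surf1, a complex IV factor, by 0.39, and Atpaf2, a chaperone of the ATP synthase head, by 0.42. Acn9, a factor for complex II, rose by 0.61, Cmc1, for complex IV, by 0.59, Tmem70, for complex V, by 0.33, and Ttc19, for complex III, by 0.26 on the log2 scale. The Acn9 call was lost without replicate 1 of Rif1-KO. Lrpprc, which stabilises mitochondrial mRNAs, had 143, 136 and 139 CPM in Rif1-KO-labelled libraries, against 208, 213 and 214 CPM in control libraries (log2 fold change −0.60 ± 0.05 SE, edgeR adjusted p = 1.26e-09).

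Of the 13 subunits encoded in mitochondrial DNA, 7 could be tested, and 6 of them fell. Their libraries scattered, and in 5 of these 6 the groups overlapped. The sum of the 13 was 24605, 23895 and 30163 CPM in Rif1-KO-labelled libraries, against 25716, 36431 and 32104 CPM in control libraries, so the groups overlapped. Cytochrome b, mt-Cytb, was the exception among the 6, at 2460, 2378 and 3083 CPM in Rif1-KO-labelled libraries, against 3210, 4667 and 4041 CPM in control libraries (log2 fold change −0.59 ± 0.10 SE, edgeR adjusted p = 4.96e-05). The most abundant, mt-Co1, had a log2 fold change of −0.03 and did not pass. mt-Nd4l, mt-Co2, mt-Co3 and mt-Atp8 were listed at 0 in all libraries, and mt-Nd3 and mt-Atp6 in all but 1, so the sum does not cover them.

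Regulators of respiratory genes fell in 9 of 17 tested cases and 1 rose, of 20 listed. Nrf1 and Gabpa, transcription factors of nuclear respiratory genes, did not pass, with log2 fold changes of −0.07 and −0.11. Pprc1, a coactivator of the PGC-1 family, had 178, 177 and 185 CPM in Rif1-KO-labelled libraries, against 261, 274 and 261 CPM in control libraries (log2 fold change −0.56 ± 0.04 SE, edgeR adjusted p = 3.83e-09). Tfam, which packages and transcribes mitochondrial DNA, had 66.4, 67.7 and 67.2 CPM in Rif1-KO-labelled libraries, against 88.9, 88.2 and 86.9 CPM in control libraries (log2 fold change −0.39). Peo1, the mitochondrial DNA helicase, fell by 0.68. In each of these 3 genes the groups were apart. Ppargc1a, PGC-1alpha of the same family as Pprc1, was too low to be tested, with 16, 10 and 20 counts in Rif1-KO-labelled libraries, against 0, 1 and 0 counts in control libraries. Each Rif1-KO-labelled library lay above each control library.

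Import, carrier and chaperone genes of mitochondria fell in 16 of 20 cases and 0 rose (also 0 at an unadjusted p under 0.05 in edgeR and with DESeq2 and limma-voom), with a median log2 fold change of −0.26. Among them were Slc25a5, an ADP/ATP carrier, which fell by 0.59, Hspa9, the mitochondrial Hsp70, by 0.46, and Hspd1, the matrix chaperonin, by 0.43. Of 18 genes of the citric acid cycle and pyruvate entry, 7 fell (38.9%) and 1 rose (5.56%). The 44.4% called in either direction lay near the 50.9% of all tested genes, of which 24.8% fell and 26.1% rose. Suclg1, of succinyl-CoA ligase, fell by 0.35, and Pdha1, of pyruvate dehydrogenase, rose by 0.47. Of 13 coenzyme Q genes, 5 fell (38.5%) and 2 rose (15.4%), and the 53.8% called lay near the share over all tested genes. Among them were Adck3 (fell by 0.85), Coq7 (fell by 0.52) and Coq10b (rose by 0.65). Of 9 tested genes for cytochrome c and other electron carriers, 3 fell and 3 rose (66.7% called in either direction). Etfb fell by 0.63 and Dhodh by 0.67, while Etfdh, which passes electrons from Etfb and its partner to ubiquinone, rose by 0.47.

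**Figure D5:**
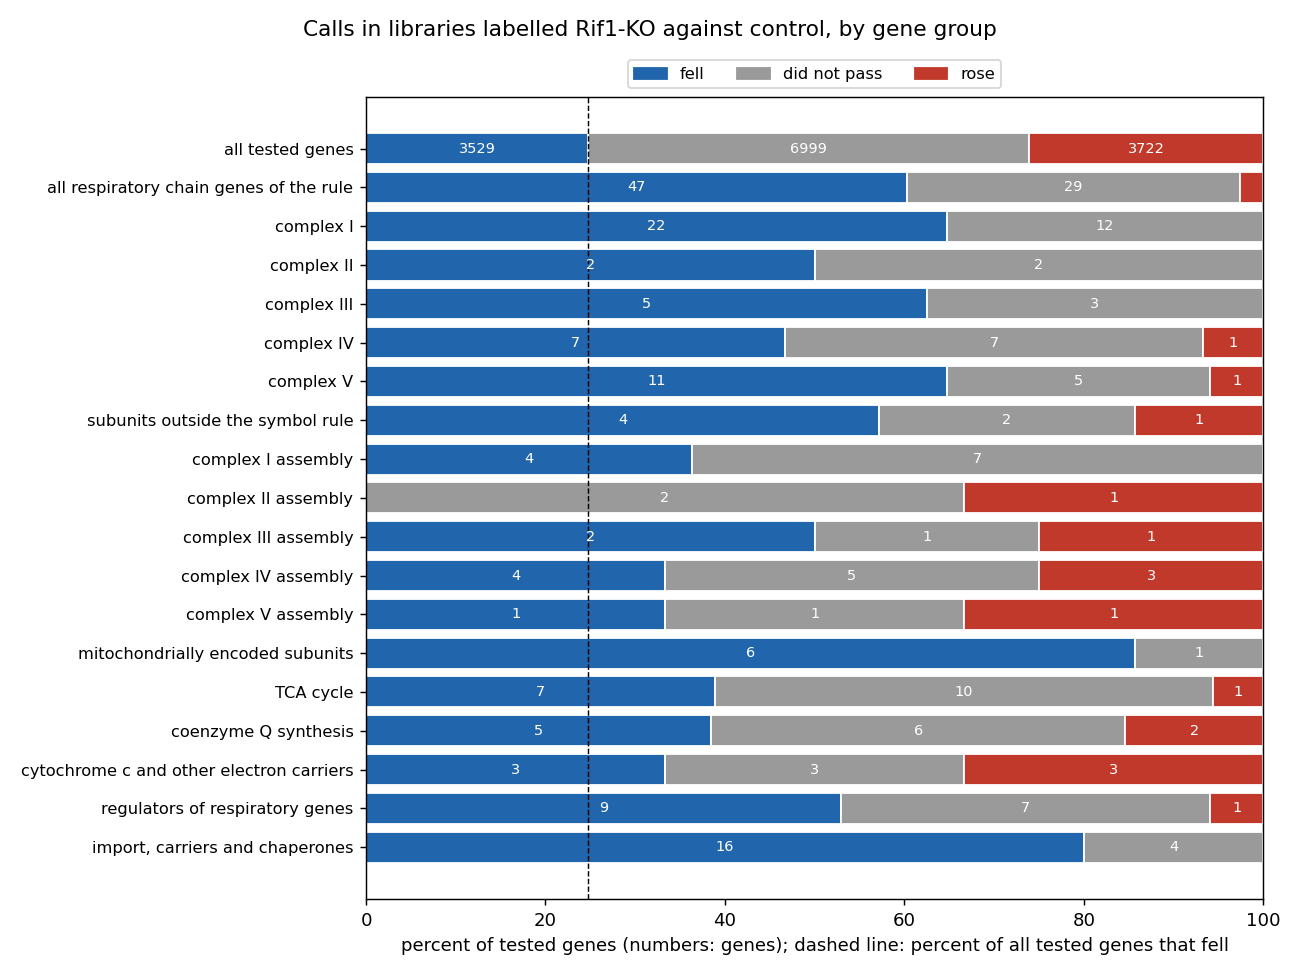
Percent of tested genes (horizontal axis) that fell (blue), did not pass (grey) or rose (red) in Rif1-KO-labelled libraries, for all tested genes, the respiratory chain genes, each complex and the neighbouring lists, with numbers of genes in the bars. The dashed line marks the 24.8% of all tested genes that fell, and the blue bars of complexes I to V all pass it.

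Markers of cell states also differed between the groups. Of 8 listed embryonic stem cell markers 7 were found by symbol, of which 3 rose and 1, Sox2, fell. Their sum was 4167 to 4517 CPM in Rif1-KO-labelled libraries and 4116 to 4379 CPM in control libraries. All 6 markers of 2-cell-like cells rose, with sums of 31.2 to 32.9 CPM in Rif1-KO-labelled libraries and 0.111 to 0.486 CPM in control libraries. All 6 passed the filter on low counts only through Rif1-KO-labelled libraries, so a fall could hardly have been called. All 5 tested of 6 primitive endoderm markers rose, with sums of 29.9 to 32.5 CPM in Rif1-KO-labelled libraries and 15.3 to 17.3 CPM in control libraries. Sox17 among them passed the filter on low counts only through Rif1-KO-labelled libraries. The sixth, Sox7, was too low to be tested, with 1, 2 and 0 counts in Rif1-KO-labelled libraries, against 3, 8 and 3 counts in control libraries, each Rif1-KO-labelled library below each control library. Of 6 listed trophectoderm markers 5 were found by symbol. The 2 tested ones, Krt8 and Krt18, rose, and Cdx2 was at 0 in all libraries. The sum of the 5 was 138 to 153 CPM in Rif1-KO-labelled libraries and 47.7 to 49.6 CPM in control libraries. Krt8 and Krt18 made up most of it, at means of 74.2 and 69.9 CPM in Rif1-KO-labelled libraries and 22.5 and 25.8 CPM in control libraries. Gata3 and Elf5 were too low to be tested, with 35 and 2 counts over Rif1-KO-labelled libraries and 8 and 4 over control libraries. Of 6 fibroblast markers, 3 were tested. Thy1 fell, at a mean of 5.67 CPM in Rif1-KO-labelled libraries and 11.3 CPM in control libraries. Pdgfrb and Col1a1 did not pass, with log2 fold changes of 0.28 and −0.16. In Pdgfrb each Rif1-KO-labelled library lay above each control library. The sum of the 6 was 20.5 to 23.3 CPM in Rif1-KO-labelled libraries and 20.7 to 30.0 CPM in control libraries. The part of these cell states in the respiratory chain differences was not tested.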

How the data were processed

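The authors deposited raw counts per gene symbol, 1 table per library and 33924 symbols each. The submitters' processing notes name STAR, featureCounts 1.6.2, R 3.28.1 and build mm9. For annotation, strand setting and reads with several matches, the choice made is not given in the sources used here. An mRNA kit was used on 200 ng of RNA, per the labels. They do not call the replicates separate cultures, and p-values then reflect the spread of these samples alone, which can be technical.

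Counts were scaled by TMM and filtered with filterByExpr (minimum count 10, about 1.09 CPM) in edgeR 4.0.16 (R 4.3.3), and fitted with group as the only term. Library sizes were recomputed after the filter, a setting kept after 3 variants were compared with earlier counts of calls in these data, and 47 members fell and 2 rose either way. Alternatives used other scalings, DESeq2 1.42.0, limma 3.58.1 with voom, other filters, a replicate block, an offset for GC content and length, and each library left out, 15 in all. The offset replaced each library's own smooth trend (splines with 5 degrees of freedom, pseudocount 1).

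Transcript lengths, GC content and shared 50-base stretches came from GENCODE M21 on GRCm38, another build than the counts, so no gene coordinates of the counts are printed. The transcript taken was the lower-median principal coding transcript, a choice made after values were seen, because the longest gave implausible lengths. Values that use length moved with this choice, among them the per-kilobase sums and, under the offset, the number of members that rose and the median of complex V, which lay nearer to 0 with the longest transcript. Length and GC content were found for 97.8% of tested genes.

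The members, the 19 lists and their roles were chosen with earlier results of these data known. The same number in both groups did not pair the samples. The rule for named genes takes Rif1, members past 1.5-fold, and the 4 lowest adjusted p and 2 highest CPM per complex. It also takes tissue isoforms and Ndufa4l2 with their counterparts, and up to 3 per list. Some of these are given by their fold change alone, and some listed genes, most cell-state markers among them, only within counts and sums. Other members and listed genes are given with their role or were picked after their values were seen. Of the genes this takes, 2 enter the counts but are not reported here by name. Simple sums and medians carry no test. Errors of CPM are SD over 3 libraries.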

Additional observations from a re-analysis of the deposited data

How the results depend on the processing

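Of the 47 respiratory chain genes that fell, 30 fell in all 15 alternatives, and of the 2 that rose, 1 (Ndufa4l2) did so. No called member changed sign. The offset for GC content and length ended the calls of Atp5g2, Atp5k, Cox6b1, Cox8a, Ndufa6, Ndufa7, Ndufa8, Ndufb4, Ndufb7, Ndufb11 and Ndufs7. DESeq2 ended those of Atp5g2, Atp5g3, Atp5k, Cox6b1, Cox7a1, Ndufa6, Ndufa8, Ndufa12, Ndufb4, Ndufs1, Uqcrb and Uqcrc2. With limma-voom those of Cox6b1 and Uqcrb ended, and with no filter on low counts that of Ndufa6. DESeq2 left 1 member that rose, 3 in complex III that fell and 0 in complex V that rose. With no filter on low counts 4 members rose, among them 1 of complex III and 2 of complex IV. With the GC and length offset 7 members rose (1 of complex I, 4 of complex IV, 2 of complex V), and the median log2 fold change was −0.144 over members, −0.163 in complex I and −0.196 in complex V. The numbers of the replicates did not pair the samples (correlations of deviations 0.07, −0.06 and 0.04 for same numbers). The replicate block left 1 complex III gene that rose. With block and offset together 9 members rose (1 each in complexes I, II and III, 4 in IV, 2 in V), and the medians were −0.144, −0.165 in complex I and −0.194 in complex V. Summed per kilobase, the log2 ratio was −0.179 for complex I and −0.197 for complex V. The causes were not tested.

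Leaving out 1 library at a time gave 39 to 45 members that fell and 1 to 8 that rose (5 without control replicate 1, 8 without Rif1-KO replicate 3, 1 without control replicate 2 or 3 or Rif1-KO replicate 1), and medians from −0.235 to −0.189. The number that rose was 0 to 1 in complexes I, II and III, 1 to 4 in IV and 0 to 2 in V. In complex III, 3 to 5 fell, and it was 3 without Rif1-KO replicate 1. Medians ran from −0.258 to −0.205 in complex I, −0.114 to −0.027 in IV and −0.252 to −0.230 in V. Ndufa4 and Cox6b2, neither of which passed in the fit reported or with a library left out, changed sign. With the offset, alone and with the block, Cox6b2 passed as higher (0.130 and 0.131). Ndufa4 ran from −0.048 (without control replicate 2) to 0.049 (without control replicate 1; 0.026 without Rif1-KO replicate 3), and Cox6b2 from −0.0073 (without Rif1-KO replicate 1; −0.0025 without control replicate 2) to 0.034 (without Rif1-KO replicate 3). Counts of Ndufs5, Cox7b2, Cox8b, Cox8c and the Atp5l copies were too low to test. Of 50-base stretches, 35.6% in Ndufs5, 73.4% in Atp5l2 and 55.1% in Atp5l-ps1 also occur in other genes, and the part of shared reads in these low counts was not tested.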
